A study of Mus musculus with 6 samples.

Results

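A set of 7 genes of the plasminogen activator and serpin families were followed across 6 arrays: the proteases Plat and Plau, the receptor Plaur, and the serpins Serpine2, Serpinb5, Serpinf1 and Serpinh1. They were chosen by name, with earlier results of these data known. A probe was assigned to a member when the transcript accession that the array gives for it belonged to that gene. This yielded 8 probes for the 7 genes out of 20660 genes matched on the array. Plat, Plau, Plaur, Serpine2, Serpinb5 and Serpinh1 had 1 probe each and Serpinf1 had 2. All 8 passed the filter on low signal and were well above background on every array. RNA came from mammary glands of female C57Bl6J mice, 3 biological replicates of E18.5 fetal cells with the surface phenotype CD31-CD45-Ter119-EpCAM++CD49f+ and 3 of basal cells from adults of 8 to 12 wk with the phenotype CD31-CD45-Ter119-BP-1-EpCAM+CD49f+, and each replicate had its own one-color array (Agilent SurePrint G3 Mouse GE). Fetal glands were digested briefly in collagenase and hyaluronidase, whereas adult glands were digested overnight, so that digestion time and developmental stage cannot be told apart. How many animals contributed to a replicate is not given in the sources used here. No spot was saturated, and between 76.4% and 83.3% of probes on an array were well above background.

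Plasmin is a broad serine protease that dissolves fibrin and cleaves matrix proteins and latent growth factors. It is released from plasminogen by the tissue activator, encoded by Plat, or by urokinase, encoded by Plau, which works on the cell surface when it is held by its receptor, encoded by Plaur. Serpins are a large protein family whose inhibitory members trap serine proteases in a covalent complex, and this system remodels tissue around the epithelium during mammary growth and involution. Other serpins have lost inhibition and serve as secreted factors or, for Serpinh1, as a chaperone of collagen in the endoplasmic reticulum.

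The sorted populations were checked first against the transcripts of the sort antigens and against epithelial markers. Epcam was higher in fetal cells (12.97 ± 0.10 against 11.09 ± 0.19, SD, n = 3, log2 normalized signal, Holm-adjusted p = 0.0260 by limma), and the fetal gate was the brighter one for EpCAM. The Epcam call held in 1 of the 6 fits that left out an array and was lost with the replicate number or slide as a block. Its log2 difference lay between 1.80 and 1.99 over the alternatives. Itga6, which encodes CD49f, had means of 15.74 and 15.73. Pecam1, which encodes CD31, and Ptprc, which encodes CD45, were well above background on all arrays and differed by -0.14 and -0.31 (log2, fetal minus adult basal), with an adjusted p of 1 for each. On none of the 6 arrays was Enpep, the gene of BP-1, well above background. Of 15 basal markers, 10 were called higher in adult basal cells, led by the smooth muscle genes Myh11 (-8.63) and Cnn1 (-6.01), while Vim (1.15) alone among them had its higher mean in fetal cells and was called with Benjamini-Hochberg adjustment only. Vim is named after its value was seen. Of 17 luminal markers 8 were called higher in fetal cells, led by Elf5 (7.55) and Foxa1 (6.46). The Elf5 call held in all 6 fits that left out an array and that of Foxa1 in 2. The other direction was seen for 5 luminal markers, none of them called with Holm's adjustment and 3 with Benjamini-Hochberg adjustment, Esr1 (-3.58), Krt7 (-1.29) and Krt19 (-1.22), which are named after their values were seen. Esr1 was well above background on only 1 fetal array, so the size of its difference is uncertain.

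Promoter sequence is shown for Serpine2, the member that was higher in fetal cells, and for the 3 members past 2-fold in the adult basal direction whose window the reference table holds. Windows of 250 bases directly upstream of the RefSeq start (GRCm38.p6) are given 5′ to 3′ on the strand of the gene, with 2 motifs in capitals. They are the GC box core GGGCGG, searched as GGGCGG and CCGCCC, and the pattern TGANTCA, which reads the same on both strands. TGANTCA allows any central base and is looser than the AP-1 motif. Overlapping matches of GGGCGG were each counted, and the motifs did not overlap each other.
Serpine2, chr1:79858666-79858915, minus strand: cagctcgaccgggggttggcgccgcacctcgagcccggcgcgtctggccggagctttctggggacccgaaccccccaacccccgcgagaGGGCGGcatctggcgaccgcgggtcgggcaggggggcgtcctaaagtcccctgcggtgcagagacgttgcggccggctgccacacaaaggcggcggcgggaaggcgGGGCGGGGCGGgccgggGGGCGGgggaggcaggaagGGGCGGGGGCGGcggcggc
Serpinh1, chr7:99353240-99353489, minus strand: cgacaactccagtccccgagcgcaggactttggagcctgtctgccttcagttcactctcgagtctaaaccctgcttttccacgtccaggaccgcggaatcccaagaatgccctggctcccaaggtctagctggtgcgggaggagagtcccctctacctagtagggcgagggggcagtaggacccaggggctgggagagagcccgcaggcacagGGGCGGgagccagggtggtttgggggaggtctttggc
Plaur, chr7:24462233-24462482, plus strand: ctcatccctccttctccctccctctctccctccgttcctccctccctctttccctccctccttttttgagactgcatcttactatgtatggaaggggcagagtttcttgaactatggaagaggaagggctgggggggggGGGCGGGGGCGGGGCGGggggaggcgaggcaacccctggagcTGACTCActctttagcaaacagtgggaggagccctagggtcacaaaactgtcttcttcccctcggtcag
Serpinb5, chr1:106860925-106861174, plus strand: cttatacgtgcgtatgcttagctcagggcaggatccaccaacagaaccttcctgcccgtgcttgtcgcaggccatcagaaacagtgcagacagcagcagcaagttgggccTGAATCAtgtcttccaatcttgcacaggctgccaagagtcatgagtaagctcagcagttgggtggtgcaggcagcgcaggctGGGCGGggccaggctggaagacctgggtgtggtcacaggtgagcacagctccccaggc
The Serpine2 window was 78.8% G or C with 34 CpG dinucleotides, against medians of 52.4% and 6 over 32851 windows of the same length, and 3.53% of those windows held at least as many CpG. It had 6 matches of GGGCGG, a number reached in 0.886% of windows. Plaur had 3 matches of GGGCGG and Serpinh1 and Serpinb5 had 1 each, and at least 1 was present in 32.7% of all windows. TGANTCA was found in the windows of Plaur, as TGACTCA with its first base 69 bases before the start, and of Serpinb5, as TGAATCA 140 bases before it. It was present in 6.75% of all windows. The window of Serpinf1, on chromosome 11, held neither. These are matches of letters and not measured sites.

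Seen together, 1 member, Serpine2, had far more signal in fetal cells, and the other 6 had their higher mean in adult basal cells. Calls required at least a 2-fold difference and, in limma's test, p no greater than 0.05 after Holm's adjustment, and by this rule 2 of the 7 genes were called, Serpine2 in the fetal and Plat in the adult basal direction. Among all 20448 probes tested, 2270 were called (11.1%), of which 1210 (5.92%) were in the fetal and 1060 (5.18%) in the adult basal direction. With Benjamini-Hochberg adjustment at the same limits 5 of the 7 were called, 1 in the fetal and 4 in the adult basal direction, beside 30.0% of all probes. For each of the 7 genes the values of the populations were separate, with 6 higher in adult basal and 1 in fetal cells. That held for 69.0% of all probes, 35.0% with adult basal and 34.1% with fetal arrays higher, so lack of overlap alone did not set the members apart. The median difference of the members was -1.18 (log2, fetal minus adult basal), and that of all tested probes -0.03. An exact permutation test of 3 against 3 arrays cannot give a p below 0.10, and the calls rest on limma's pooling of variance over probes. In sorted bulk samples, fewer cells carrying a transcript and less of it in each cell cannot be told apart.

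**Figure D1:**
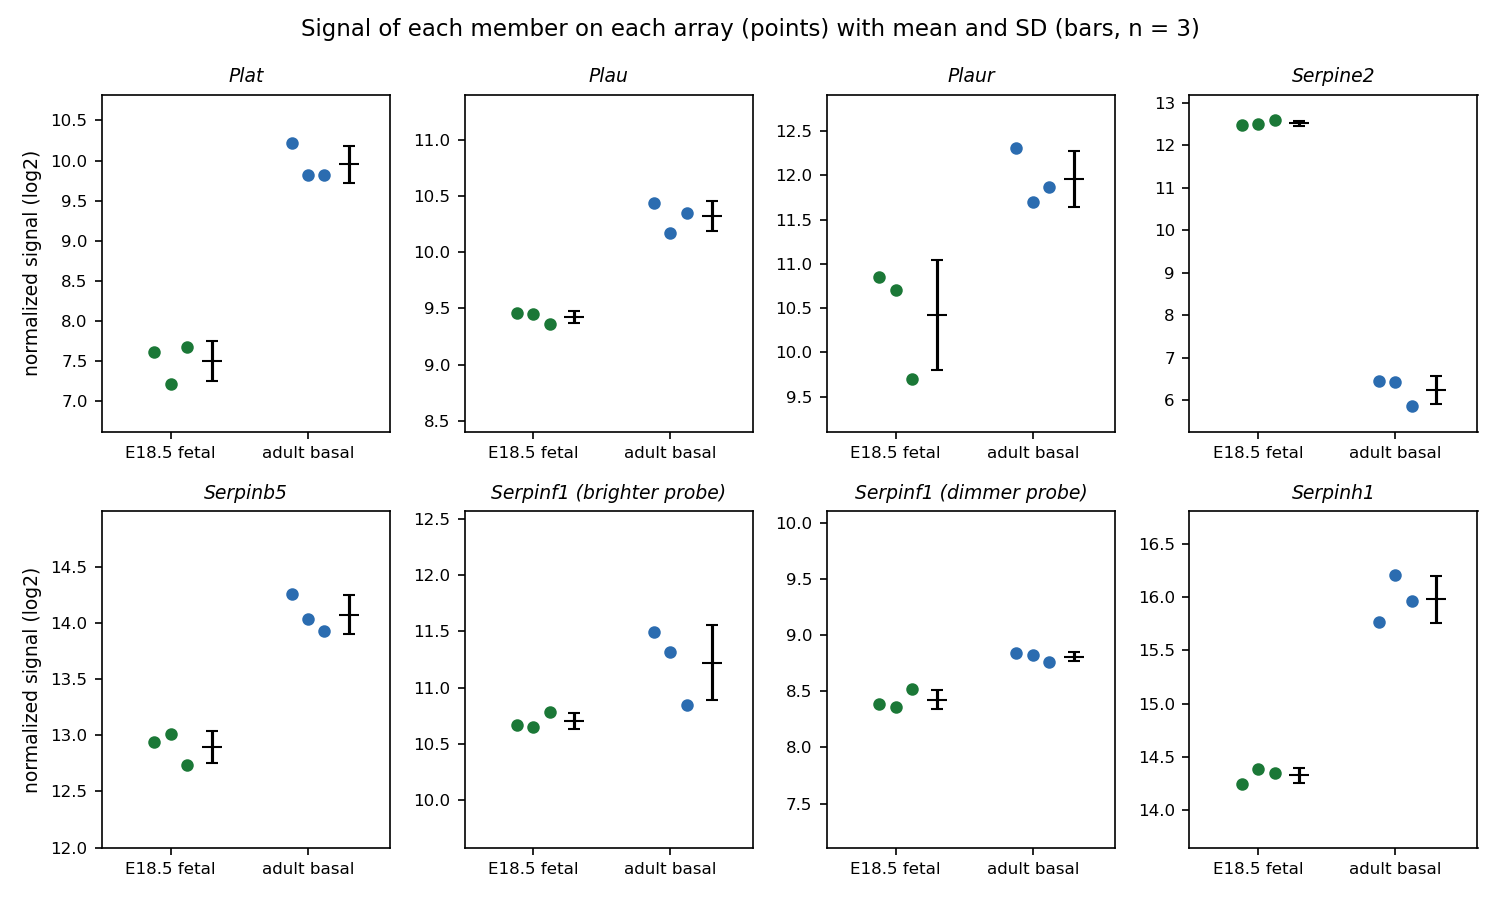
Log2 normalized signal of the 8 member probes in 3 E18.5 fetal (green) and 3 adult basal (blue) arrays, 1 point per array, with the mean and SD as black bars. Each panel has its own axis range, and the Serpine2 panel spans far more than the others. The populations do not overlap in any panel, and only Serpine2 is higher in fetal cells.

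Plat encodes tissue plasminogen activator, the protease best known for starting the dissolution of clots. Its signal was 7.61, 7.22 and 7.68 in fetal replicates 1 to 3 and 10.22, 9.83 and 9.82 in adult basal replicates 1 to 3 (log2 normalized signal). All fetal values lay more than 2 log2 units below every adult basal value. Adult basal cells thus had 5.47-fold more signal, a log2 difference of -2.45 (SE 0.17, 95% interval -2.85 to -2.05, Holm-adjusted p = 0.0272), and 8.79% of tested probes had a larger difference. The size of the difference was -2.41 within the first slide and -2.38 within the second. The call, unlike the size, changed with the setting and was lost when any 1 of the 6 arrays was left out (Holm-adjusted p from 0.0913 to 0.321), with the replicate number as a block (adjusted p = 0.0643) and with slide as a block (adjusted p = 0.119).

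Plau encodes urokinase, the activator that acts mainly at the cell surface. The fetal arrays read 9.46, 9.45 and 9.36 and the adult basal arrays 10.44, 10.18 and 10.35 (log2 normalized signal). Replicates were tight and the populations separate, but the difference was under 2-fold, at -0.90 (SE 0.11, 95% interval -1.15 to -0.65, Holm-adjusted p = 0.954), and Plau was not called under any of the 18 alternatives. A larger difference, in either direction, was seen for 34.0% of tested probes.

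Plaur encodes the urokinase receptor, a protein anchored to the membrane by a lipid. Its signal was 10.85, 10.71 and 9.71 in fetal replicates 1 to 3 and 12.31, 11.70 and 11.86 in adult basal replicates 1 to 3 (log2 normalized signal). Fetal replicate 3 was about 1 log2 unit below the other two, which gave Plaur the widest fetal spread of the members (SD 0.62, against 0.31 in adult basal cells, n = 3). The difference was -1.53 (SE 0.31, 95% interval -2.27 to -0.80, Holm-adjusted p = 1), and it was -1.18 without fetal replicate 3. Plaur was called only with Benjamini-Hochberg adjustment (adjusted p = 0.00391).

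Serpine2 encodes protease nexin 1, a secreted inhibitor of thrombin, urokinase and tissue plasminogen activator. Its probe read 12.47, 12.50 and 12.58 in fetal replicates 1 to 3 and 6.44, 6.43 and 5.86 in adult basal replicates 1 to 3 (log2 normalized signal). The fetal arrays agreed within 0.06 (SD, n = 3), and the adult basal values lay close to the limit of the low-signal filter, 5.95, although well above background on each array. The difference was 6.27 (SE 0.17, 95% interval 5.87 to 6.67, Holm-adjusted p = 4.01e-05), or 77.2-fold. Of the tested probes, 0.528% had a larger difference in either direction. Serpine2 was called under all 18 alternatives, with differences between 5.35 and 6.44, and the values within the slides were 6.32 and 6.11.

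Serpinb5 encodes maspin, a largely intracellular serpin that is not a classical protease inhibitor and is made by mammary myoepithelium. The fetal arrays gave 12.94, 13.01 and 12.73 and the adult basal arrays 14.26, 14.04 and 13.93 (log2 normalized signal). The difference was -1.18 (SE 0.13, 95% interval -1.49 to -0.87), just past 2-fold, and it did not pass (Holm-adjusted p = 0.575). It was called with Benjamini-Hochberg adjustment only (adjusted p = 1.67e-04).

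Serpinf1 encodes pigment epithelium-derived factor, a secreted serpin that inhibits no protease and is known for restraining blood vessel growth. Its brighter probe read 10.67, 10.65 and 10.79 in fetal replicates 1 to 3 and 11.49, 11.32 and 10.85 in adult basal replicates 1 to 3 (log2 normalized signal). Adult basal replicate 3 lay only just above the highest fetal value. The difference was -0.52 (SE 0.17, 95% interval -0.92 to -0.11, Holm-adjusted p = 1). The dimmer probe differed by -0.39 (SE 0.10, Holm-adjusted p = 1), so both stayed under 2-fold and had the same direction.

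Serpinh1 encodes HSP47, which binds procollagen while it folds. Its signal was 14.25, 14.39 and 14.35 in fetal replicates 1 to 3 and 15.76, 16.21 and 15.97 in adult basal replicates 1 to 3 (log2 normalized signal). The populations were separated by more than 1 log2 unit. Adult basal cells had 3.14-fold more signal (log2 difference -1.65, SE 0.13, 95% interval -1.97 to -1.34), which missed the threshold (Holm-adjusted p = 0.0784). It passed with a normexp background correction (adjusted p = 0.00334), with an offset of 16 before log2 (adjusted p = 0.0221), with a variance trend and robust estimation (adjusted p = 0.00347) and with Benjamini-Hochberg adjustment (adjusted p = 3.51e-05). The values within the slides were -1.62 and -1.84.

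The rest of the plasminogen system was read from a list of 23 further genes, of which 17 passed the low-signal filter. Of these 2 were called (11.8%, beside 11.1% of all probes), 1 higher in adult basal and 1 in fetal cells. The median difference of the 17 was -0.32. Lrp1, the endocytic receptor that clears activators bound to their inhibitors, read 9.31, 9.12 and 9.34 on the fetal and 13.26, 13.22 and 13.49 on the adult basal arrays, a difference of -4.07 (SE 0.12, Holm-adjusted p = 7.02e-05). Every adult basal value exceeded every fetal value by more than 3 log2 units, and Lrp1 was called under all 18 alternatives. Igf2r, the mannose 6-phosphate receptor, which also binds plasminogen and the urokinase receptor, was called higher in fetal cells at 1.82 (SE 0.11, Holm-adjusted p = 0.0137), but that call held in only 1 of the 6 fits that left out an array, with an adjusted p of up to 0.239.

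Plg, which encodes plasminogen itself, a protein made mostly by the liver, was well above background on 1 adult basal array and on no fetal array, and was not tested. Serpinb2, which encodes a mostly intracellular inhibitor of urokinase, read 6.90, 6.45 and 5.36 in fetal replicates 1 to 3 and 6.63, 5.49 and 6.58 in adult basal replicates 1 to 3. Its populations overlapped and it differed by 0.01, with an interval from -1.05 to 1.06 that leaves room for a 2-fold change either way. With Benjamini-Hochberg adjustment 6 of the 17 genes were called, 3 in the fetal and 3 in the adult basal direction, beside 30.0% of all probes.

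**Figure D2:**
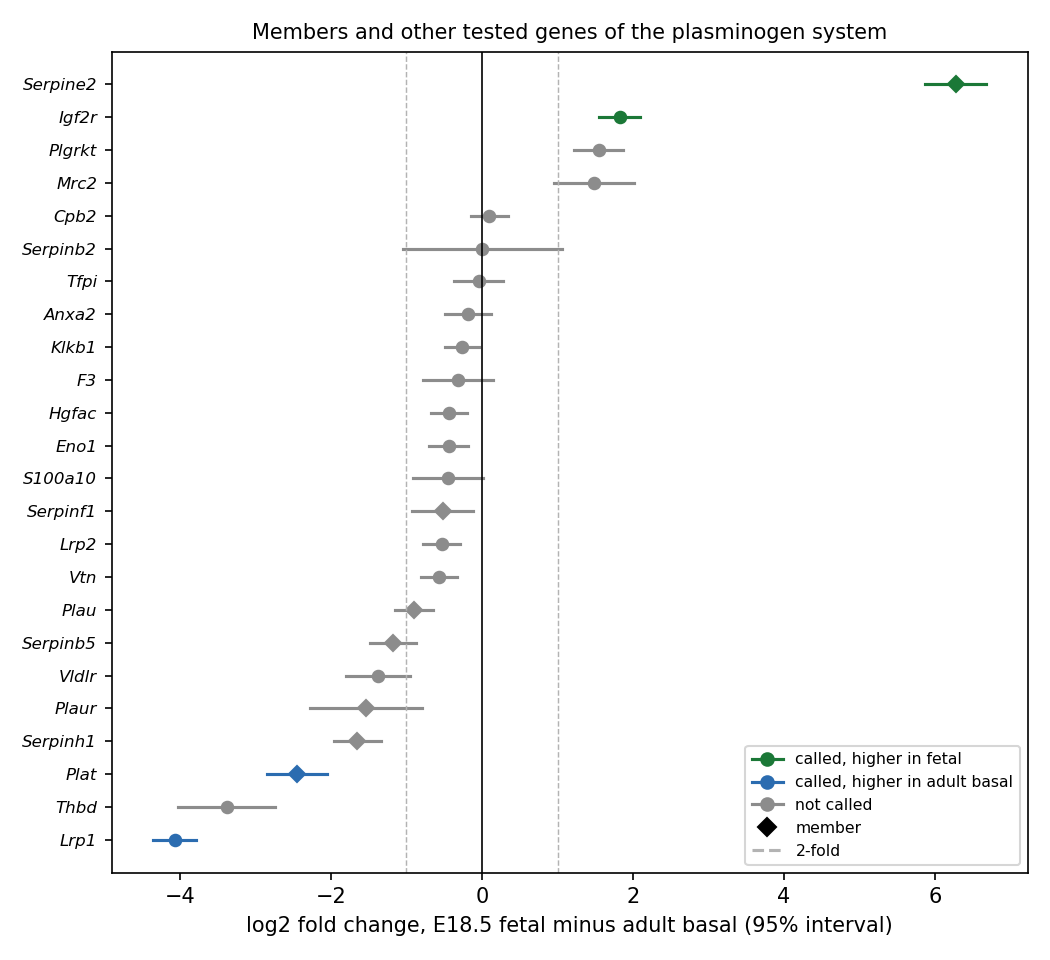
Log2 difference (fetal minus adult basal, x axis) with its 95% interval for the 7 members (diamonds) and the 17 other tested genes of the plasminogen system (circles), ordered by size. Green and blue mark genes called higher in fetal and in adult basal cells, and grey those not called. Serpine2 at 6.27 and Lrp1 at -4.07 stand at the ends.

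The wider serpin family was read from 55 other serpin genes on the array. Of these 30 passed the low-signal filter, and 8 were at background throughout the arrays. In the test 4 of the 30 were called (13.3%), all higher in adult basal cells. Beside this, 11.1% of all probes were called, 5.18% in the adult basal direction. Of the 30 genes 24 had their higher mean in adult basal cells, with a median difference of -0.55. Among these and the members, Serpine2 was the only tested serpin gene that was called higher in fetal cells. Serpinb7, which did not pass the low-signal filter and was not tested, was well above background on all 3 fetal arrays (5.54, 4.15 and 6.11) and on no adult basal array, and was at least 2.81-fold higher in fetal cells. In the other direction Serpinb1b, also not tested, was well above background on all 3 adult basal arrays and on no fetal one, and was at least 2.23-fold higher in adult basal cells. Both are named after their values were seen. The 4 genes called were Serpinb9 (-3.87, SE 0.18), Serping1 (-3.51, SE 0.15), Serpina3n (-3.38, SE 0.16) and Serpinb6b (-3.13, SE 0.11), with Holm-adjusted p of 0.00196, 0.00112, 0.00203 and 3.04e-04. Each was called under all 18 alternatives.

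Serping1 encodes the C1 inhibitor, which restrains complement and the contact system. It read 8.11, 8.23 and 8.14 on the fetal and 11.97, 11.40 and 11.63 on the adult basal arrays with its brighter probe, and its other probe gave a larger difference, -6.24 (Holm-adjusted p = 3.32e-04). Serpinb9 encodes an inhibitor of granzyme B and read 6.08, 5.84 and 5.60 on the fetal and 9.85, 9.39 and 9.91 on the adult basal arrays. Serpina3n and Serpinb6b, a secreted and an intracellular serpin, belong like Serpinb9 to clusters of related mouse genes, and cross-hybridization between copies was not tested. Serpina3n read 6.84, 6.56 and 6.52 in fetal replicates 1 to 3 and 10.24, 9.74 and 10.10 in adult basal replicates 1 to 3.

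**Figure D3:**
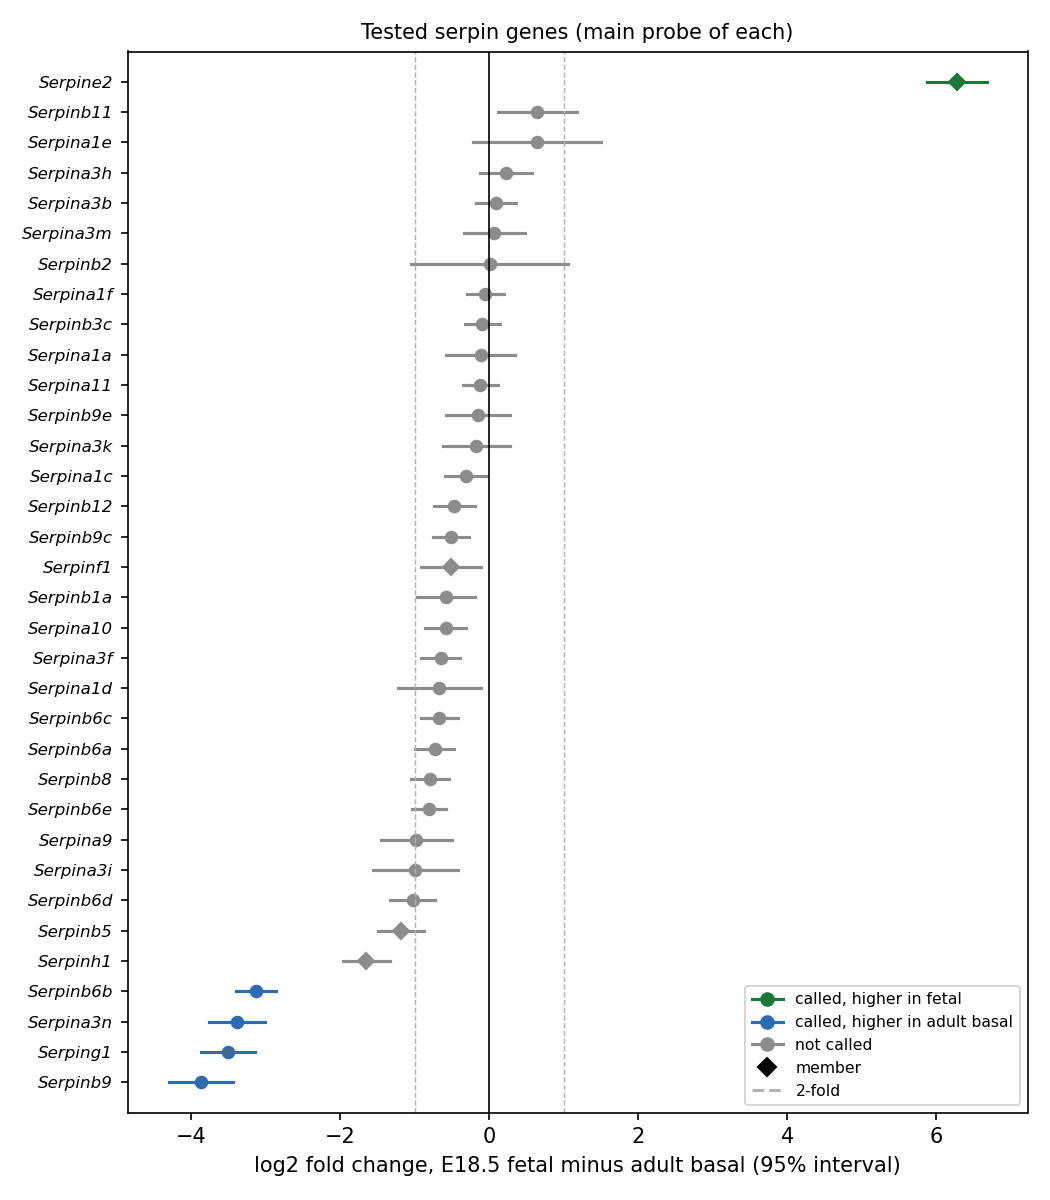
Log2 difference (fetal minus adult basal, x axis) with its 95% interval for the main probe of tested serpin genes, the members as diamonds and the 30 others as circles. Green and blue mark genes called higher in fetal and in adult basal cells, and grey those not called. Serpine2 is the single green gene, and the 4 blue genes lie between -3.87 and -3.13.

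**Figure D4:**
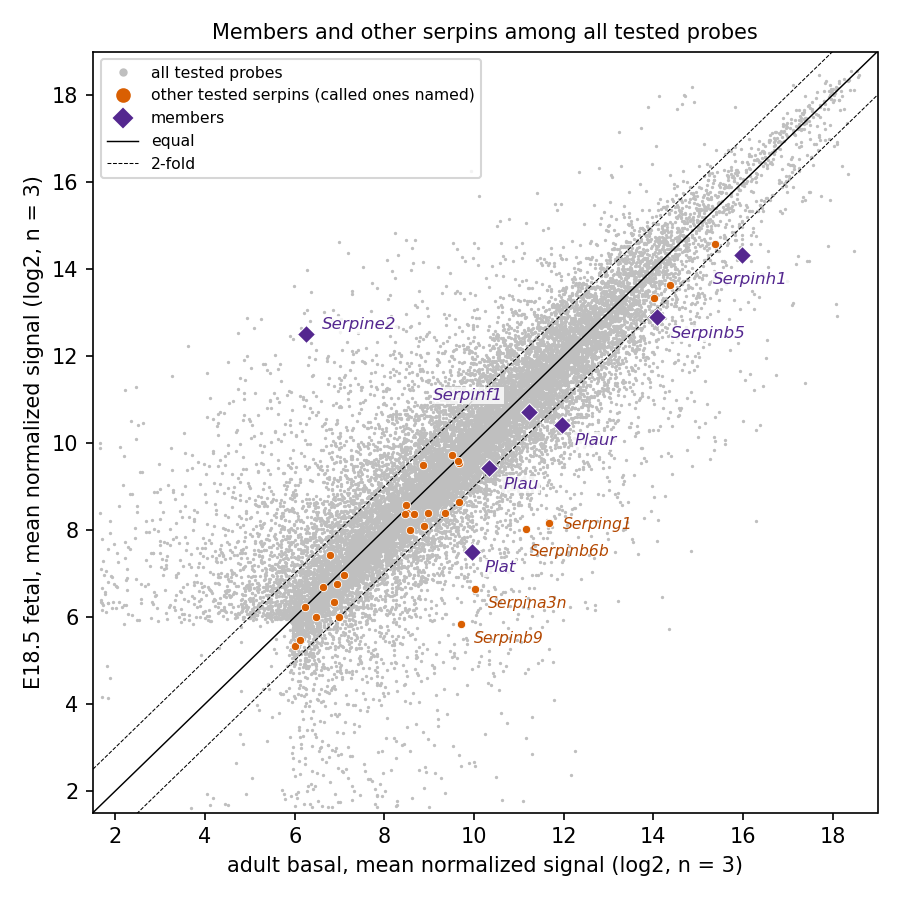
Mean log2 normalized signal in adult basal (x axis) and E18.5 fetal cells (y axis, n = 3 each) for all tested probes (grey), the members (purple diamonds) and the other tested serpins (orange), with lines for equal signal and for a 2-fold difference. Serpine2 lies far above the line of equality and Plat below it, and the 4 named orange serpins lie further below it than Plat.

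Serpinh1 was set beside 32 genes that fold and process collagen, 31 of them tested. Of these 8 were called (25.8%, beside 11.1% of all probes), 5 higher in adult basal and 3 in fetal cells. Of the 31 genes 23 had their higher mean in adult basal cells (median -0.68). The adult basal group held subunits of prolyl 4-hydroxylase, the enzyme that hydroxylates proline in procollagen, with P4ha2 at -5.53 (SE 0.12, Holm-adjusted p = 7.84e-06) and P4ha1 at -3.53 (SE 0.22, Holm-adjusted p = 0.0120). P4ha2 read 10.21, 9.97 and 10.04 on the fetal and 15.50, 15.76 and 15.56 on the adult basal arrays. Adamts14 (3.74) and Adamts3 (2.19), which encode proteases that trim procollagen ends, were called higher in fetal cells, and Adamts2 (-1.96), of the same group and named after its value was seen, was called higher in adult basal cells. The calls of P4ha2 and Adamts14 held under all 18 alternatives, those of P4ha1, Adamts3 and Adamts2 under 12, 13 and 10. Of 33 collagen chain genes tested 8 were called, 5 in the fetal direction, among them Col9a1 (5.99) and Col2a1 (5.15), and 3 in the adult basal direction, among them Col17a1 (-2.51) and Col4a2 (-2.13). The call of Col2a1 held under 17 of the 18 alternatives and that of Col4a2 under 9.

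**Figure D5:**
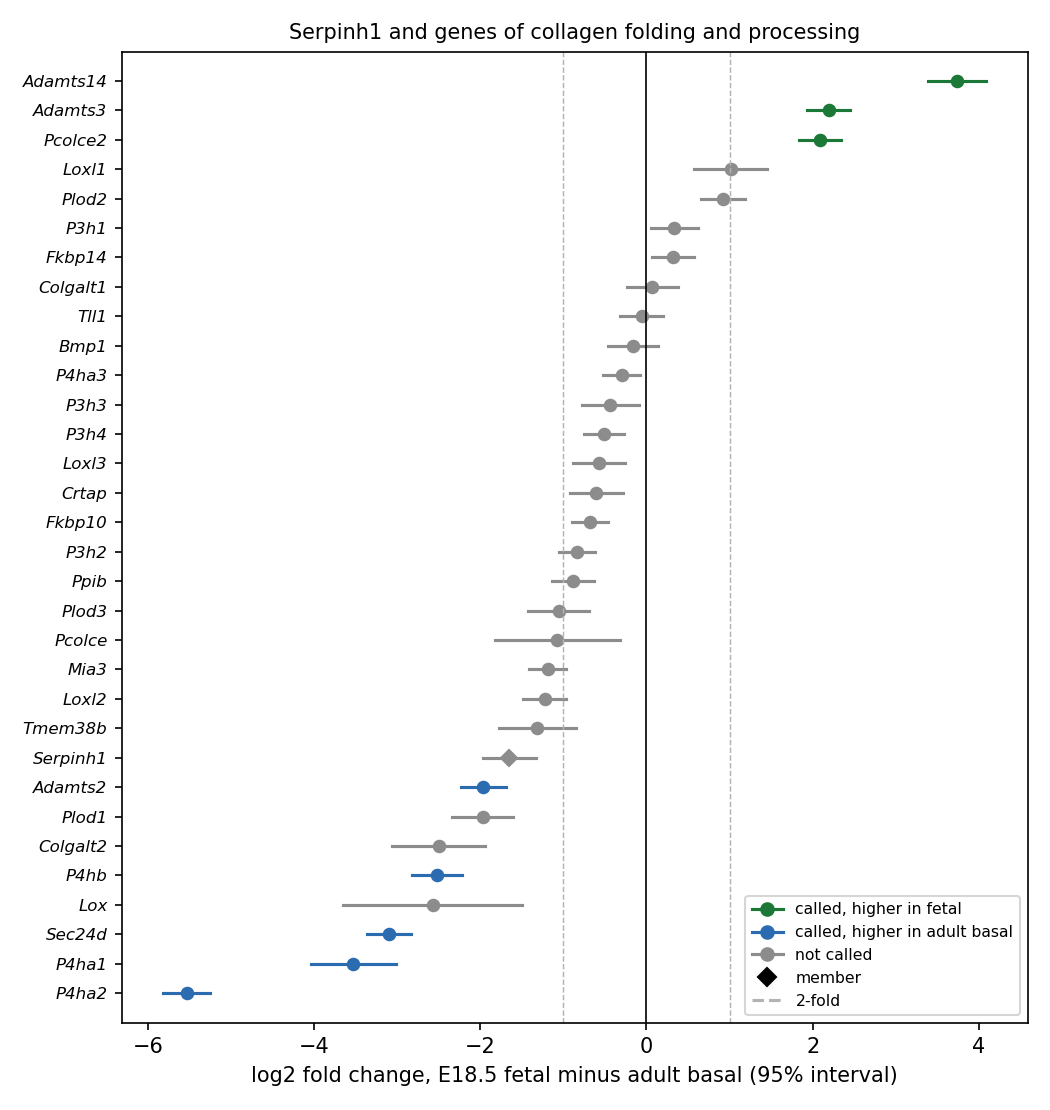
Log2 difference (fetal minus adult basal, x axis) with its 95% interval for Serpinh1 (diamond) and the 31 tested genes of collagen folding and processing (circles). Green and blue mark genes called higher in fetal and in adult basal cells, and grey those not called. Serpinh1, at -1.65, lies just above Adamts2, at -1.96, among the genes on the adult basal side, and P4ha2 is the lowest at -5.53.

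Because HSP47 is also a heat shock protein, and because digestion differed between the populations, stress genes were read beside it. None of 14 heat shock genes was called by limma with Holm's adjustment and 1 was with Benjamini-Hochberg adjustment, beside 11.1% and 30.0% of all probes. An unadjusted p under 0.05 in limma's test was seen for 11 of the 14, and for at least 12912 of all 20448 probes. Of the 14 genes 11 had their higher mean in fetal cells, with a median of 0.43. Of 18 immediate early genes 3 were called, all higher in fetal cells, led by Nr4a1 (3.50) and Klf6 (3.11), and 12 were with Benjamini-Hochberg adjustment, 11 of them higher in fetal cells. The Nr4a1 call held in 1 of the 6 fits that left out an array and was lost with the replicate number as a block. That of Klf6 held under all 18 alternatives. The summed signal of the immediate early genes was 3.11-fold higher in fetal cells. The part of digestion or stress in the differences of Serpinh1 and the other members was not tested. In a list of other secreted and membrane serine proteases, which also held their receptors F2r and F2rl1, 5 of 16 tested genes were called, with Prss23 (-3.75) and Htra1 (-3.67) higher in adult basal and Tmprss4 (3.76) and F2r (2.66), the thrombin receptor, higher in fetal cells. The F2r call held in 2 of the 6 fits that left out an array and was lost with the replicate number or slide as a block. Of 9 tested inhibitors of other families 2 were called, Slpi, an inhibitor of neutrophil elastase (-5.19), and Wfdc2 (2.67). The Slpi call held under all 18 alternatives. That of Wfdc2 held in 2 of the 6 fits that left out an array and was lost with slide as a block.

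Several serpins and activators are also made by stromal cells, so markers of other cell types are given beside them. Both gates took EpCAM-positive cells, whereas the study places the stromal cells of fetal glands in the EpCAM-negative fraction, and adult cells alone were also depleted with BP-1 as a stromal marker. Of 15 fibroblast markers 12 were tested and 2 were called, both higher in adult basal cells, namely Dcn (-3.78) and Prrx1, which was at least 74.8-fold higher, a bound at the main setting because every fetal array had it at background. Over the alternatives the fitted log2 difference of Prrx1 ranged from -7.77 to -4.00. With single arrays left out, the call of Prrx1 held in 2 of 6 fits and that of Dcn in 5 of 6. The summed fibroblast signal was 10259, 10186 and 12509 in fetal replicates 1 to 3 and 21122, 25464 and 32217 in adult basal replicates 1 to 3 (linear normalized signal), 2.39-fold higher in adult basal cells, where Dcn made up 41.4% of it. Besides Prrx1, the markers Dpt, Twist1 and Tcf21 were at background on all fetal arrays, whereas the 11 others were well above it on every fetal array. With Benjamini-Hochberg adjustment 6 of the 12 were called, 5 higher in adult basal cells and 1 in fetal cells, Fbln1 (1.03). Dpt, Twist1, Tcf21 and Fbln1, like Kdr, are named after their values were seen. None of 8 endothelial or 11 leukocyte markers tested was called by limma with Holm's adjustment. With Benjamini-Hochberg adjustment 5 and 2 were called, all higher in adult basal cells, beside 30.0% of all probes. An unadjusted p under 0.05 in limma's test was seen for 5 and 4, and for at least 12912 of all 20448 probes. The fetal sums were 0.908 and 0.983 times the adult basal sums. The endothelial sum is mostly Kdr, 91.5% of it in fetal and 85.8% in adult basal cells, and all 8 endothelial markers had their higher mean in adult basal cells, with a median of -1.48. Of 6 tested pericyte markers, Notch3 (4.70) was called higher in fetal and Pdgfrb (-4.34) in adult basal cells. The summed pericyte signal was 2.79-fold higher in fetal cells, where Notch3 made up 79.8% of it. By contrast, 5 of the 6 tested pericyte markers had their higher mean in adult basal cells. Of 6 tested epidermis markers Krt10 (1.47) was called higher in fetal cells. The Krt10 call held in 0 of the 6 fits that left out an array and was lost with the replicate number or slide as a block. The part of these cells in the differences of the members was not tested.

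The genes with the most similar profiles were listed by the Euclidean distance between log2 profiles over the 6 arrays, each centred on its mean, among 15733 other tested genes. The profiles were not scaled, so this distance mostly follows the difference between the populations. For Serpine2 these were Tk1 (distance 0.32), Dcpp3 (0.34) and Rad51ap1 (0.38), whose own differences were 6.14, 6.21 and 6.09. For Plat they were Cd59a (0.10), Fam169a (0.28) and Kctd12b (0.31), and for Plaur, Ahnak (0.46), Map3k6 (0.49) and Gch1 (0.49). Mgat1, Alg5 and Zfp983 were nearest to Plau, and Col16a1, Irf9 and Pcdhb6 to Serpinb5. Glrp1, Recql5 and Nat8f1 were nearest to Serpinf1, and Slc39a13 and Dipk2a were among the 3 nearest to Serpinh1. Among the members themselves Plau and Serpinb5 had the closest profiles (0.43), and Serpine2 was at least 8.32 from each of the others.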

How the data were processed

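Samples were grouped by the labels, 3 arrays per population. The authors deposited linear spot intensity values (Feature Extraction 11.0.1.1, background subtracted, not normalized between arrays) and a table of log2 values, which the methods describe as quantile normalized in GeneSpring 12. The deposited log2 columns followed their own array's scanner values most closely (r between 0.971 and 0.996, of deviations from probe means), and were used only as an alternative. The methods and the labels name different labelling kits. Here control and outlier spots (104 to 326 per array) were dropped from the deposited processed intensity, log2 values of each probe averaged, and the arrays quantile normalized.

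The scanner files identify probes by accession. These were matched without versions to a RefSeq table of GRCm38.p6, which named 27235 of 55681 probes (48.9%), for 20660 genes. Promoter windows come from RefSeq of the same build, and 5 of the 7 members had one. The low-signal filter used 3 k-means clusters as in the methods, but on the pooled means of both populations and on gene-matched probes only. The number of probes left thus differs from that of the study. It set a limit of 5.95 (log2) and left 20448 probes, and limma 3.58.1 (lmFit, eBayes; R 4.3.3) was run on these. Holm's adjustment covered all of them, and calls needed p of at most 0.05 and at least 2-fold. Fold changes are fetal minus adult basal. The brightest tested probe stood for a gene. Where a population was below background on every array, a bound against the lowest signal well above background is given in place of a fold. The code was tested on simulated data.

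Arrays lay on 2 slides (fetal 1, adult basal 1 and 3 on one, the others on the second). The 18 alternatives covered normalization, background correction, filters, probes tested, adjustment, variance model, offset, replicate and slide blocks, each array left out, and averaging the probes of a gene. Normexp used median spot intensity with an offset of 50. Named genes are the members, called genes of the plasminogen and serpin lists with Plg and Serpinb2, up to 4 called genes of each other list, the sort antigens, and 3 nearest profiles per member. Other genes given with values in the text are marked there. Some genes are left out of the lists and are not reported here. Members and lists were chosen with earlier results of these data known. Tables and plots were made in Python 3.11.15 with pandas 2.3.3, numpy 2.4.6 and matplotlib 3.10.9.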

Additional observations from a re-analysis of the deposited data

How the results depend on the processing

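All 7 members kept their direction under all 18 alternatives, Serpine2 kept its call under all of them, and Plau and Serpinf1 were never called. The call of Plat, -2.45 (limma, Holm-adjusted p = 0.0272), was lost with no low-signal filter (-2.45, adjusted p = 0.215), with all probes tested whether or not they match a gene (-2.45, adjusted p = 0.0676), with the replicate number as a block (-2.45, adjusted p = 0.0643) and with slide as a block (-2.39, adjusted p = 0.119), and without any single array (-2.53 to -2.31, Holm-adjusted p from 0.0913 to 0.321). The cause of these losses was not tested. Calls were gained by Serpinh1 with normexp (-1.60, adjusted p = 0.00334), an offset of 16 (-1.65, adjusted p = 0.0221), a variance trend with robust estimation (-1.65, adjusted p = 0.00347) and Benjamini-Hochberg adjustment (-1.65, adjusted p = 3.51e-05), and by Plaur (-1.53, adjusted p = 0.00391) and Serpinb5 (-1.18, adjusted p = 1.67e-04) with Benjamini-Hochberg adjustment. The number of members called was therefore 2, or 1 with no filter, all probes, the replicate block, the slide block or any array left out, 3 with normexp, an offset of 16 or the variance trend, and 5 with Benjamini-Hochberg adjustment. Without single arrays the members differed by -0.98 to -0.84 (Plau), -1.76 to -1.18 (Plaur), 6.08 to 6.38 (Serpine2), -1.25 to -1.08 (Serpinb5), -0.70 to -0.38 (Serpinf1) and -1.77 to -1.53 (Serpinh1).

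Of all probes, 2270 were called, 1182 with no filter, 1302 with the replicate block, 6133 with Benjamini-Hochberg adjustment, and 948 to 1949 with an array left out, the fewest without fetal replicate 1. The share of called probes higher in fetal cells lay between 51.1% and 55.0% under the 17 alternatives counted over all probes. Averaging the probes of a gene was not among these. Plasminogen system genes called numbered 2, 3 with scaling to the 75th percentile, 4 with normexp, an offset of 16 or the variance trend, 6 with Benjamini-Hochberg adjustment, 1 with no filter, and 1 to 2 with an array left out. Other serpins called numbered 4 under all alternatives but Benjamini-Hochberg adjustment, which gave 5. Among the other genes named as called, leaving out single arrays ended the call at least once for Dcn and Col2a1 (held in 5 of 6 fits), Adamts3 (3), Adamts2, Foxa1, F2r, Wfdc2 and Prrx1 (2 each), Igf2r, Epcam, P4ha1, Col4a2 and Nr4a1 (1 each) and Krt10 (0). The slide block also ended the calls of Adamts2, Epcam, Col4a2, F2r, Wfdc2, Prrx1 and Krt10, and the replicate block those of Adamts2, Adamts3, Col4a2, Epcam, F2r, Igf2r, Krt10, Nr4a1 and Prrx1. Among the same genes, testing with no low-signal filter ended every call but those of Dcn, Col2a1 and Adamts3, all probes those of Col4a2, Epcam, F2r, Krt10 and Nr4a1, the variance trend those of Foxa1, Nr4a1 and Prrx1, the mean of a gene's probes those of Adamts2 and Krt10, and normexp that of Adamts3. Deviations from the population means correlated between same-numbered fetal and adult basal arrays at -0.03, 0.09 and 0.05. Between differently numbered arrays the values ran from -0.13 to 0.12. With 3 arrays per population these values cannot show whether the numbers mark pairs. The 3 arrays per population limit precision. The adult basal signal of Serpine2 lies near the dim end of the scale, and its difference ranged from 5.35 to 6.44 over the alternatives.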
